A study of Trichoderma reesei with 4 samples.

Results

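The sorbicillinoid gene cluster of the filamentous ascomycete Trichoderma reesei carries the genes for the yellow pigments of this fungus. Of its genes, 6 were taken by their identifiers from the 9126 features of a gene expression array. The 6 were chosen with earlier results of these data known. They are the polyketide synthase genes sor1 (TRIRE2_73618) and sor2 (TRIRE2_73621), the monooxygenase gene sor3 (TRIRE2_73623), the transporter gene sor4 (TRIRE2_43701) and the regulator genes ypr1 (TRIRE2_102499) and ypr2 (TRIRE2_102497). All 6 identifiers are in the RefSeq gene table of T. reesei QM6a (assembly v2.0), without a symbol, so the names are those used for these identifiers in work on the species.

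All samples came from a single strain, QM9414, a mutant that the labels describe as a low cellulase producer, grown on malt extract agar plates over cellophane. The groups were mycelium at 0 h and sporulating cultures at 3 h, 6 h and 9 h, with 2 biological replicas each. Cy3-labelled total RNA of each was measured on NimbleGen arrays with 1 colour. Non-sporulating cultures of the later times were not analysed here, so sporulation and time in culture cannot be told apart.

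Each level below is a mean log2 expression value ± SD of 2 replicas, and both replica values follow from these. Levels of different genes are not set against each other, because their probes differ. The median level of all features lay between 11.53 and 11.56 at the 4 times, and the median SD between 0.0821 and 0.0992. By the thresholds given below, 6.77%, 6.68% and 7.48% of all features were higher than in mycelium at 3 h, 6 h and 9 h. Genes that mark sporulation were chosen with earlier results of these data known. Of 3 such genes, all 3 were higher than in mycelium at each sampled time. These were lxr1, for the D-mannitol dehydrogenase by which the submitters followed conidiation, and the hydrophobin genes hfb2 and hfb3, and lxr1 was already 2.58-fold higher at 3 h (adjusted p = 0.00014). In RNA of whole cultures, fewer cells that express a gene and less RNA per cell cannot be told apart.

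Sorbicillinoids are polyketides. In T. reesei the polyketide synthases Sor1 and Sor2 act in sequence to build sorbicillin from acetyl and malonyl units, and the monooxygenase Sor3 oxidises it to the reactive sorbicillinol, from which other yellow compounds form. Sor4 is a transporter of the major facilitator family. Ypr1 is known as the transcriptional activator of the cluster, and Ypr2 as a further transcription factor encoded in it.

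The biosynthetic genes sor1, sor2 and sor3 and the transporter gene sor4 rose between 3 h and 6 h, and with ypr2 they stood above mycelium at 6 h and 9 h, while ypr1 fell first and then partly returned. A gene was called with an adjusted p under 0.05 (limma's moderated test, Benjamini-Hochberg adjustment over all 9126 features) and a change of at least 2-fold. At 3 h against 0 h, 0 of 6 genes were higher, where 6.77% of all features were, and 1 of 6, ypr1, was lower, where 4.8% of all features were. At 6 h against 0 h, 5 of 6 genes were higher (6.68% of all features) and ypr1 was lower (4.27% of all features). At 9 h against 0 h the same 5 genes were higher (7.48% of all features) and ypr1 was lower (5.4% of all features). The median log2 change of the 6 genes was 0.24 at 3 h, 1.57 at 6 h and 2.0 at 9 h, beside -0.049, -0.028 and -0.037 for all features. These 3 comparisons share the 0 h arrays. Since the 6 genes were chosen with earlier results known, their counts beside the shares of all features are a description only.

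For sor1, sor2, sor3, sor4 and ypr2 the step from 3 h to 6 h had the largest log2 change of the 3 steps. In it 5 of 6 genes were called higher, namely sor1, sor2, sor3, sor4 and ypr1 (2.38% of all features), and 0 were lower (2.62% of all features), with a median log2 change of 1.61 beside 0.026 for all features. From 6 h to 9 h only sor3 was higher (1 of 6, against 1.12% of all features), and 0 were lower (0.811% of all features). Between 3 h and 9 h the genes sor1, sor2, sor3, sor4 and ypr1, 5 of 6, were higher (3.02% of all features) and 0 lower (3.5% of all features). The log2 change of ypr2 was 0.87 in the step to 6 h and 0.98 over the whole span to 9 h, and both passed the adjusted p and stayed under 2-fold. By the moderated F test over the changes against 0 h, with at least 2-fold at some time, all 6 genes changed, as did 18.9% of all features. The authors' deposited table gives p-values over the 4 times from 0.000829 for sor4 to 0.0227 for sor1.

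**Figure D1:**
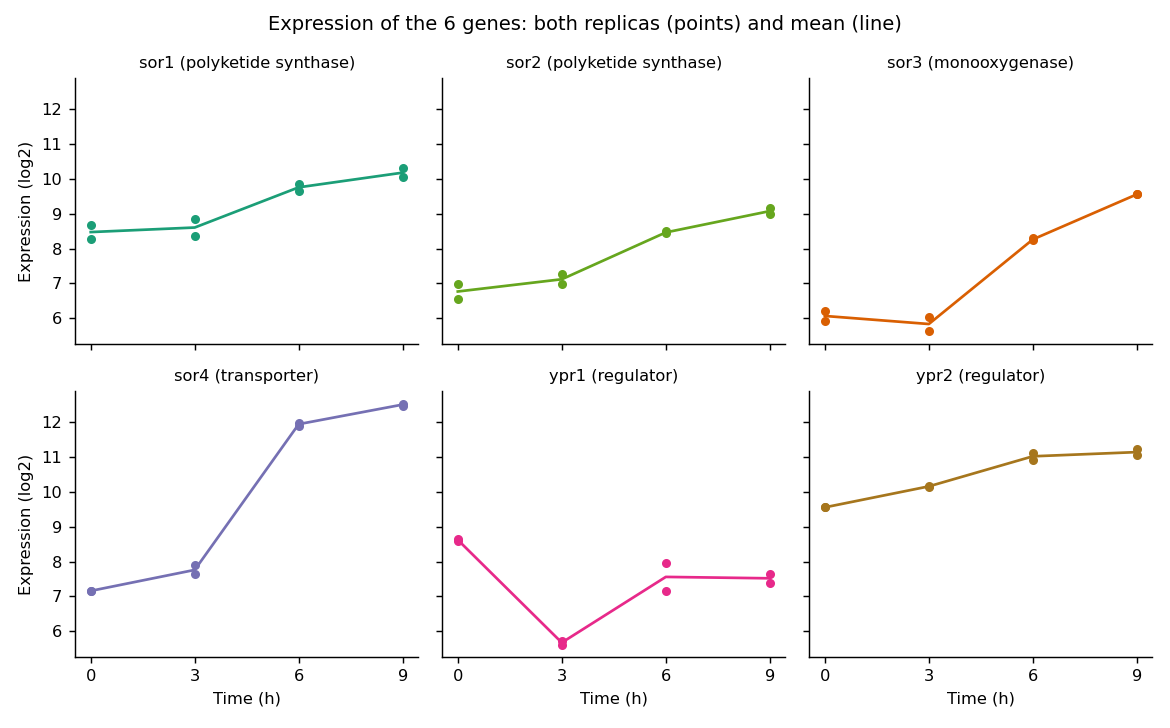
Expression (log2, vertical axis) against time in hours (horizontal axis) for each of the 6 genes, with both replicas as points and their mean as a line. The panels of sor1, sor2, sor3 and sor4 show a rise after 3 h, ypr2 rises from 9.55 to 11.13, and ypr1 dips to 5.68 at 3 h. Levels of different genes are not to be compared.

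The polyketide synthase genes were described first. The level of sor1 was 8.47 ± 0.29 at 0 h (replicas 8.26 and 8.67), 8.6 ± 0.34 at 3 h (replicas 8.36 and 8.85), 9.75 ± 0.13 at 6 h (replicas 9.65 and 9.84) and 10.17 ± 0.17 at 9 h (replicas 10.05 and 10.29). The replicas of 0 h and 3 h overlapped, and those of 6 h and 9 h lay above both. Against 0 h, the log2 change of sor1 at 3 h was 0.14, with a 95% confidence interval of -0.32 to 0.6 (adjusted p = 0.622), an interval that lies below a 2-fold rise. Expression of sor1 exceeded its mycelium level 2.43-fold at 6 h (adjusted p = 0.00167) and 3.25-fold at 9 h (adjusted p = 0.000291). From 3 h to 6 h it rose 2.21-fold (adjusted p = 0.00592). From 6 h to 9 h the log2 change was 0.42 (interval -0.04 to 0.88, adjusted p = 0.184), which did not pass the test.

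The course of sor2 was similar in shape. Its level was 6.77 ± 0.3 at 0 h (replicas 6.56 and 6.98), 7.12 ± 0.19 at 3 h (replicas 6.99 and 7.26), 8.46 ± 0.042 at 6 h (replicas 8.43 and 8.49) and 9.07 ± 0.12 at 9 h (replicas 8.99 and 9.15). No replicas overlapped between any of the times, although those of 0 h and 3 h lay side by side. The log2 change at 3 h was 0.35 (interval -0.02 to 0.72, adjusted p = 0.116). At 6 h sor2 was 3.21-fold above 0 h (adjusted p = 0.000123), and at 9 h 4.91-fold (adjusted p = 1.7e-05). The step from 3 h to 6 h was a rise of 2.53-fold (adjusted p = 0.00103). The step from 6 h to 9 h, with a log2 change of 0.61, passed the adjusted p (0.0437) and stayed under 2-fold.

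The monooxygenase gene sor3 rose in both later steps. Its level was 6.07 ± 0.19 at 0 h (replicas 5.94 and 6.21), 5.84 ± 0.29 at 3 h (replicas 5.64 and 6.04), 8.26 ± 0.035 at 6 h (replicas 8.24 and 8.29) and 9.55 ± 0.00071 at 9 h, where both replicas were at 9.55. The replicas of 0 h and 3 h overlapped, those of 6 h stood apart, and those of 9 h were higher again. The log2 change at 3 h was -0.23 (interval -0.58 to 0.11, adjusted p = 0.251). From 3 h to 6 h sor3 rose 5.37-fold (adjusted p = 4.2e-05), the 14th largest log2 change among the 9126 features. From 6 h to 9 h it rose another 2.44-fold (adjusted p = 0.00317). At 9 h it stood 11.1-fold above 0 h (interval 8.75 to 14.2, adjusted p = 1.66e-06).

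The levels of sor3 at 0 h and 3 h lay little above the highest mean of 3 mating-type (MAT1-1) features, which the strain is not expected to carry and whose means ran from 4.0 to 5.53. Fold changes against such low levels are not exact.

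The transporter gene sor4 had the widest range of the 6 genes. Its level was 7.16 ± 0.018 at 0 h (replicas 7.15 and 7.17), 7.76 ± 0.18 at 3 h (replicas 7.63 and 7.89), 11.93 ± 0.05 at 6 h (replicas 11.89 and 11.97) and 12.49 ± 0.039 at 9 h (replicas 12.46 and 12.52). No replicas of different times overlapped, and the gap between 3 h and 6 h was far wider than any spread within a time. At 3 h the change of 1.52-fold passed the adjusted p (0.00321) and not the 2-fold threshold. From 3 h to 6 h sor4 rose 18-fold (interval 15.1 to 21.5, adjusted p = 5.95e-07), and its log2 change of 4.17 ranked 1st among all 9126 features. It stood 27.3-fold above 0 h at 6 h (adjusted p = 1.04e-07) and 40.3-fold at 9 h (interval 33.7 to 48.1, adjusted p = 4.4e-08). Those log2 changes of 4.77 and 5.33 ranked 8th and 14th. From 6 h to 9 h the log2 change was 0.56, which passed the adjusted p (0.0193) and stayed under 2-fold.

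**Figure D2:**
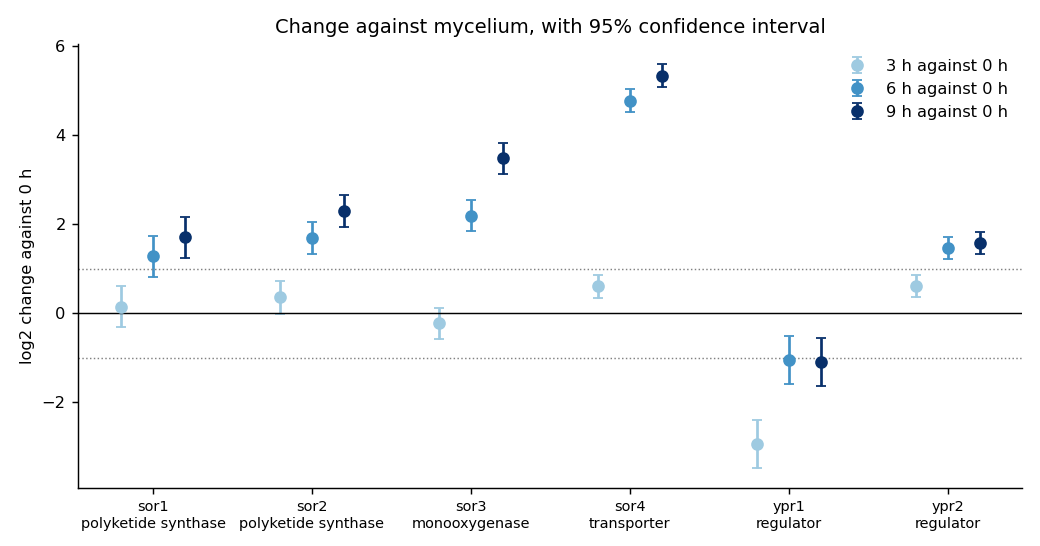
Log2 change against 0 h (vertical axis) of each of the 6 genes (horizontal axis) at 3 h, 6 h and 9 h, as points with 95% confidence intervals from limma's moderated fit, with dotted lines at a 2-fold change. At 3 h only the interval of ypr1 lies beyond a dotted line, and at 9 h sor4 stands at 5.33, sor3 at 3.48 and ypr1 at -1.09.

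The regulator genes took different courses. The level of ypr1 was 8.62 ± 0.029 at 0 h (replicas 8.6 and 8.64), 5.68 ± 0.081 at 3 h (replicas 5.62 and 5.74), 7.56 ± 0.57 at 6 h (replicas 7.15 and 7.96) and 7.52 ± 0.18 at 9 h (replicas 7.4 and 7.65). Mycelium was highest, 3 h lowest, and the replicas of 6 h and 9 h overlapped between them. At 3 h ypr1 was 7.65-fold below 0 h (interval 5.27 to 11.1, adjusted p = 4.25e-05), and its log2 change of -2.94 ranked 41st from the lowest. It then rose 3.67-fold from 3 h to 6 h (adjusted p = 0.00124). It stayed 2.08-fold below mycelium at 6 h (adjusted p = 0.00883) and 2.13-fold below at 9 h (adjusted p = 0.00591). These last 2 folds are just past the threshold, with log2 intervals of -1.6 to -0.52 and -1.63 to -0.55, and the replicas of 6 h, with an SD of 0.57, were the widest pair of the 6 genes. The nearest replica values of 6 h and 0 h differ by a log2 value of -0.64, which is under 2-fold. The 3 h level was near the top of the MAT1-1 range, so the size of the fall is not exact.

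Expression of ypr2 rose in small steps. Its level was 9.55 ± 0.0054 at 0 h (both replicas at 9.55), 10.15 ± 0.022 at 3 h (replicas 10.13 and 10.16), 11.01 ± 0.14 at 6 h (replicas 10.91 and 11.11) and 11.13 ± 0.12 at 9 h (replicas 11.04 and 11.21). The replicas of 6 h and 9 h overlapped, and all other times stood apart. At 3 h the 1.51-fold change passed the adjusted p (0.00302) and stayed under 2-fold, as did the 1.82-fold change from 3 h to 6 h (adjusted p = 0.00129). It exceeded its mycelium level 2.76-fold at 6 h (adjusted p = 3.29e-05) and 2.98-fold at 9 h (adjusted p = 1.63e-05). So at 6 h and 9 h ypr1 lay below its mycelium level and the other 5 genes above theirs. A difference in change between genes was not tested, because that needs the values of each array.

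**Figure D3:**
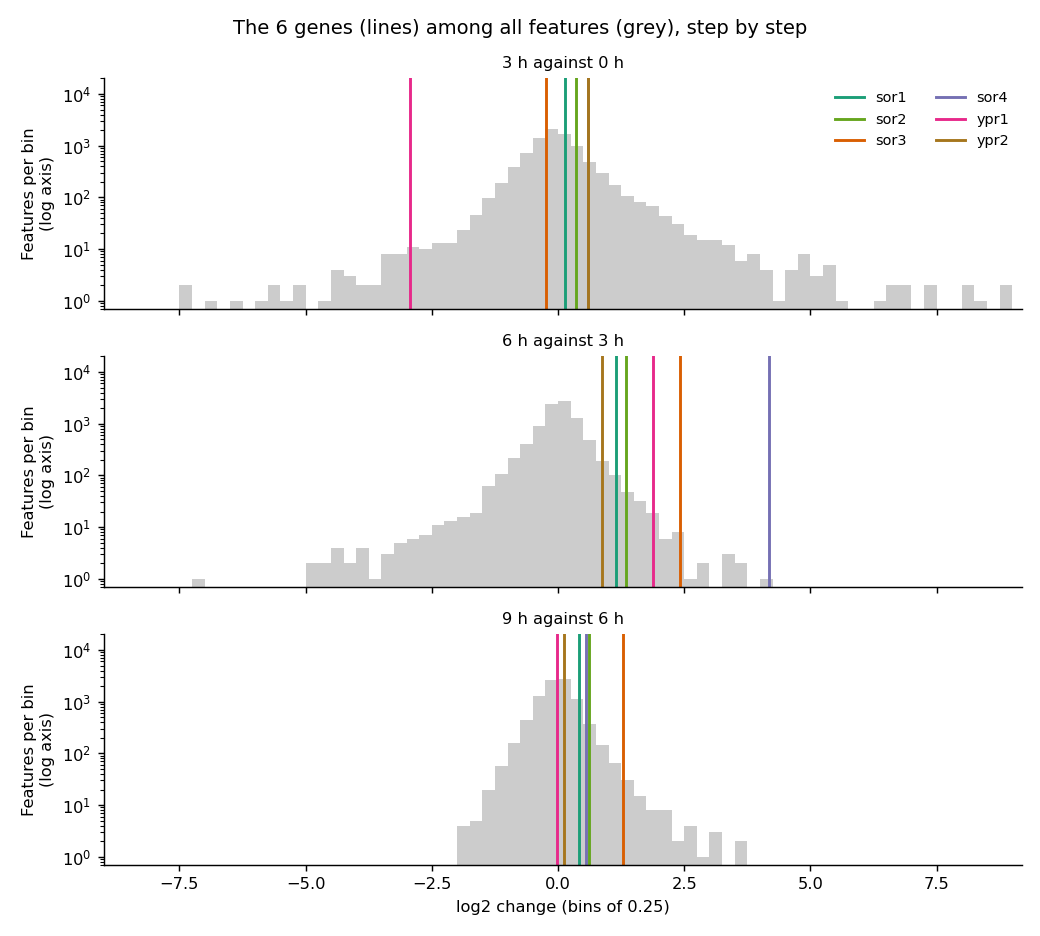
Number of features (vertical log axis) by log2 change in bins of 0.25 (horizontal axis) for the steps from 0 h to 3 h, 3 h to 6 h and 6 h to 9 h, with the 6 genes as coloured lines. The line of ypr1 stands at -2.94 in the first step, all 6 lines lie right of 0 in the second, with sor4 farthest right at 4.17, and sor3 is the farthest right in the third at 1.29.

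The next question was whether the course of the cluster extended to its neighbours. In the order of the RefSeq table the genes run sor1, sor2, sor3, sor4, ypr2, TRIRE2_73631 and ypr1. So 1 gene that was not among those taken here lies between them. It is counted below with the neighbours, and whether it belongs to the cluster was not tested. The level of TRIRE2_73631 was 8.81 ± 0.18 at 0 h (replicas 8.68 and 8.94), 7.76 ± 0.38 at 3 h (replicas 7.49 and 8.03), 8.19 ± 0.28 at 6 h (replicas 7.99 and 8.39) and 8.99 ± 0.21 at 9 h (replicas 8.84 and 9.14). It was low at 3 h, and the replicas of 0 h and 9 h overlapped. It fell 2.07-fold at 3 h (adjusted p = 0.00526) and then rose 2.34-fold between 3 h and 9 h (adjusted p = 0.00438). Its log2 change of 0.18 at 9 h against 0 h did not pass (adjusted p = 0.541).

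Of the 10 annotated genes before sor1, 0 were called at 6 h or 9 h against 0 h, and their log2 changes at 9 h ran from -0.29 to 0.35. Over the whole array, 6.68% rose and 4.27% fell by these thresholds at 6 h. The shares for 9 h were 7.48% and 5.4%. A count of 0 of 10 is near such shares, so it does not by itself set a boundary to the course of the cluster. At 3 h 1 of these 10 genes, TRIRE2_102487, was 2.61-fold higher (adjusted p = 1.57e-05), where 6.77% of all features were higher. At that time 0 of the 10 were lower, where 4.8% of all features were. Both counts are near those shares. The chitinase gene chi18-1, one of these 10, had log2 changes of -0.11, -0.25 and -0.05 at 3 h, 6 h and 9 h and was not called at any of them. The gene next to sor1, TRIRE2_102492, had a log2 change of -0.44 at 6 h and 0.02 at 9 h and was not called either.

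Of the 10 genes after ypr1, 3 were higher at each sampled time against 0 h, beside array-wide shares of 6.77%, 6.68% and 7.48%. These 3 genes stand together in gene order behind 1 other gene. They are axe1, for an acetyl xylan esterase, cip1, for a cellulose-binding protein, and cel61a, for a lytic polysaccharide monooxygenase. Each had its highest level at 3 h, a time at which no cluster gene was called higher. The level of axe1 was 6.64 ± 0.035 at 0 h (replicas 6.62 and 6.67), 14.98 ± 0.047 at 3 h (replicas 14.95 and 15.02), 10.61 ± 0.23 at 6 h (replicas 10.45 and 10.77) and 10.97 ± 0.13 at 9 h (replicas 10.88 and 11.06). From 3 h to 6 h it fell 20.7-fold (adjusted p = 9.88e-07), the step in which sor4 rose 18-fold. In the same step cip1 fell 13.4-fold (adjusted p = 0.000127) and cel61a 3.27-fold (adjusted p = 0.000981). The 0 h level of cip1, 5.89 ± 0.7 (replicas 5.39 and 6.39), was near the top of the MAT1-1 range. The size of its changes against 0 h is therefore not exact.

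The gene directly after ypr1, TRIRE2_102500, had log2 changes of -0.42, -0.14 and -0.69 at the sampled times and was not called. At the far end, TRIRE2_54042 was lower at 3 h (2.16-fold, adjusted p = 0.000291) and at 9 h (2.32-fold, adjusted p = 0.000159). At 6 h it was 1.93-fold lower, which passed the adjusted p (0.000782) and stayed under 2-fold. Over all 21 neighbours, 0 were higher from 3 h to 6 h (2.38% of all features) and 3 were lower (2.62% of all features). The count of 0 higher is near the share of all features. The median log2 change of the 21 was -0.14, where the 6 cluster genes had a median of 1.61. Genes were placed by their order in the table alone.

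**Figure D4:**
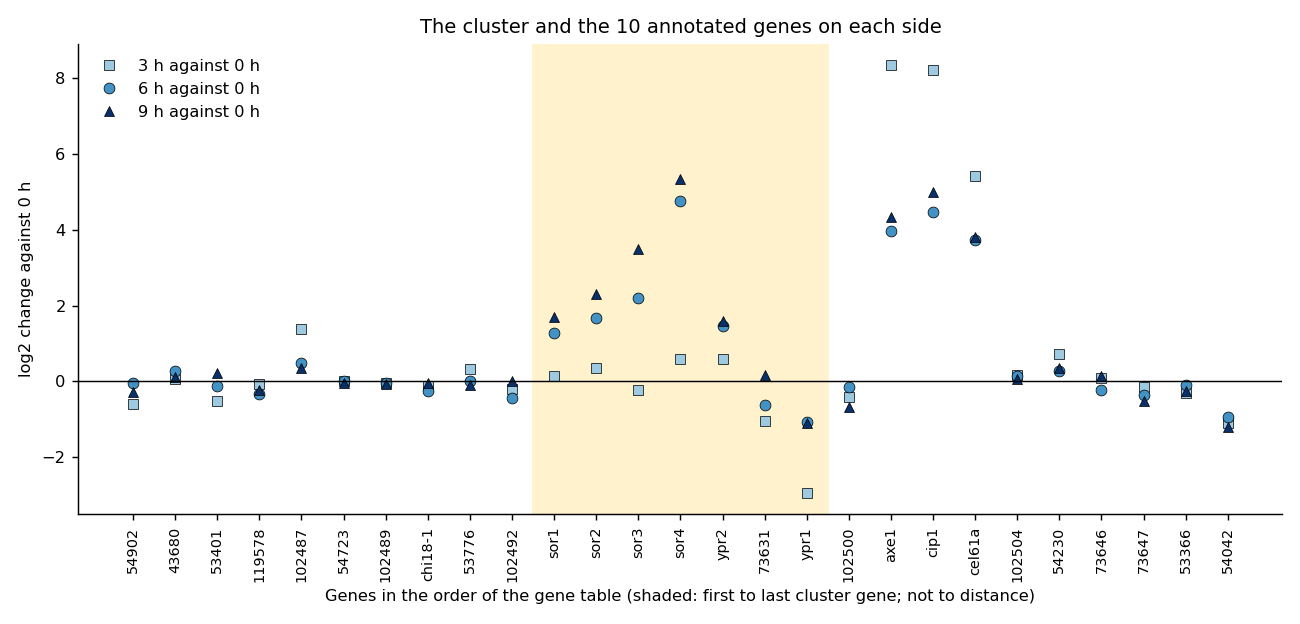
Log2 change against 0 h (vertical axis) at 3 h, 6 h and 9 h of the cluster genes, the 1 gene between them and the 10 annotated genes on each side (horizontal axis, in table order and not to distance; shading from the first to the last cluster gene; numbers are TRIRE2 identifiers). Changes at 6 h and 9 h exceed 1 in sor1, sor2, sor3, sor4 and ypr2, and also in axe1, cip1 and cel61a. The neighbours axe1, cip1 and cel61a show their largest change at 3 h, at 8.34, 8.21 and 5.43. The 0 h level of cip1 was near the MAT1-1 range, so its changes are not exact.

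Regulators outside the cluster that are known in T. reesei to act on cellulase genes, on light responses or on cAMP signalling were also examined. Of 13 such genes, 8 carried a symbol in the gene table, and the others were not analysed here. At 3 h 2 of these 8 were higher and 0 lower, with a median log2 change of 0.45 beside -0.049 for all features, while 1 was higher and 0 lower at both later times. Of all features 6.77%, 6.68% and 7.48% were higher at 3 h, 6 h and 9 h, and 4.8%, 4.27% and 5.4% were lower. Counts of 1 of 8 higher and 0 of 8 lower are near those shares. From 3 h to 6 h 0 of 8 were called in either direction, where 2.38% of all features were higher and 2.62% lower. The changes of the 8 ran from -0.5 to 0.17. The gene xyr1, for the activator of cellulase genes and of xylanase genes, was at 12.45 ± 0.0042 at 0 h (replicas 12.44 and 12.45), 13.55 ± 0.016 at 3 h (replicas 13.54 and 13.56), 13.05 ± 0.11 at 6 h (replicas 12.97 and 13.13) and 13.23 ± 0.061 at 9 h (replicas 13.18 and 13.27). It was highest at 3 h, 2.15-fold above 0 h (adjusted p = 7.15e-05), and its replicas did not overlap between any times. At 6 h and 9 h xyr1 was 1.52-fold and 1.72-fold above 0 h. These changes passed the adjusted p (0.00198 and 0.000398) and stayed under 2-fold.

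The gene env1, for a regulator of light responses, was at 10.49 ± 0.056 at 0 h (replicas 10.45 and 10.53), 11.94 ± 0.0092 at 3 h (replicas 11.93 and 11.94), 11.56 ± 0.06 at 6 h (replicas 11.52 and 11.6) and 11.82 ± 0.14 at 9 h (replicas 11.72 and 11.92). It was lowest in mycelium and higher at all later times, by 2.73-fold at 3 h, 2.1-fold at 6 h and 2.52-fold at 9 h, with adjusted p of at most 0.000133. The carbon catabolite repressor gene cre1 had log2 changes of 0.42, 0.36 and 0.63 at these times. They passed the adjusted p (0.00597, 0.0141 and 0.000793) and stayed under 2-fold. Those of the blue light photoreceptor genes blr1 and blr2 were 0.64 and 0.3 at 9 h (adjusted p = 0.00341 and 0.0514). At 9 h the adenylate cyclase gene acy1 and the protein kinase A gene pkac1 were at 0.76 and -0.05 (adjusted p = 0.000367 and 0.756). The gene ace1, for a repressor of cellulase genes, was at 0.22 (adjusted p = 0.131). All of these stayed under 2-fold, and those of blr1 and acy1 passed the adjusted p.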

How the data were processed

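The authors deposited log2 expression values normalized by RMA, per the submitters' processing notes, as a mean and an SD for each of 4 times, and 1 p-value per feature, per the file headers. RMA includes quantile normalization between arrays, so a change in total RNA cannot be seen. Its version and the genome build of the array are not given in the sources used here. A one-way analysis of variance for 2 replicas, with Benjamini-Hochberg adjustment, gave the authors' deposited p-value within 1% for 9015 of 9126 features (98.8%), and for 3 replicas for 14, so the SD was taken as that of 2 replicas. A second deposited table held the same log2 means (largest difference 0).

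From the means, SDs and 2 replicas, limma 3.58.1 (R 4.3.3; contrasts.fit and eBayes, 4 residual degrees of freedom, prior degrees of freedom 3.82, no covariates) was run on all features and times. No filter on low values was applied, so all 6 genes were tested. The computation was checked on simulated arrays. The number of arrays, 2 a time, limits the precision. The median standard error of a log2 change was 0.12.

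Text names the 6 genes by identifier and the gene between them. Of the 10 annotated genes on each side it names those with a symbol and the largest rises and falls. It also names TRIRE2_102487 and TRIRE2_102492, chosen after their values were seen. Of 13 regulators looked for by symbol, the 8 found in the gene table are named. Of the 5 features most like the median of the 6 genes, like sor4 and like sor1, only the closest of each is named. The acetyl-CoA genes were chosen from the table's symbols after the files had been opened. Members and lists were chosen with earlier results of these data known. Of the features, 9094 matched the gene table by identifier. Planned searches of promoters and protein sequences were not run. Alternatives covered normalization, prior variance, times in the fit, a filter on low levels, the fold threshold and the authors' p-value.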

Additional observations from a re-analysis of the deposited data

Results flagged for a closer look

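The changes of 5 genes against 0 h differed between sampled times, tested directly as the difference between those times, which cancels the shared 0 h arrays, with an adjusted p under 0.05 and a difference of at least 2-fold. Differences that passed the adjusted p alone were those of ypr2, 0.87 between 3 h and 6 h (adjusted p = 0.00129) and 0.98 between 3 h and 9 h (adjusted p = 0.000453), and those between 6 h and 9 h of sor2, 0.61 (adjusted p = 0.0437), and sor4, 0.56 (adjusted p = 0.0193). For sor1 the log2 change against 0 h was higher by 1.14 at 6 h and by 1.56 at 9 h than at 3 h. For sor2 these differences were 1.34 and 1.95. The monooxygenase gene sor3 differed in all 3 pairs of times, by 2.42 between 3 h and 6 h, 1.29 between 6 h and 9 h and 3.71 between 3 h and 9 h. The transporter gene sor4 differed by 4.17 at 6 h and 4.73 at 9 h from 3 h. For ypr1, below mycelium throughout, the differences were 1.88 and 1.84. Groups of 2 replicas are too small to look for single outlying arrays.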

How the results depend on the processing

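Median centring, quantile normalization of the 4 means, a trended or robust prior and a fit of only the compared times gave the same counts of called genes in each comparison, and the count at any time stayed at 6 under the 2 normalizations. The deposited values were already quantile normalized by RMA, and the medians of the 4 times lay between 11.53 and 11.56. The 2 normalizations could therefore move few calls. The authors' p-value covers all 4 times at once and is under 0.05 for all 6 genes, so with it the counts, which were the same, follow from the fold threshold alone. A filter at the 25th percentile of mean level (9.63) removed 4 of the 6 genes, sor1, sor2, sor3 and ypr1. Among sor4 and ypr2 it left 0 called at 3 h, 2 at 6 h and 2 at 9 h against 0 h, 1 in the step 3 h to 6 h, 0 in the step 6 h to 9 h and 1 between 3 h and 9 h. At 4-fold the counts were 2 at 6 h and 3 at 9 h against 0 h, 2 in the step 3 h to 6 h, 0 in the step 6 h to 9 h and 2 between 3 h and 9 h. At 1.5-fold 3 were called at 3 h against 0 h and 2 from 6 h to 9 h, and by adjusted p alone 3 and 3. Under both of these settings 6 in place of 5 were called between 3 h and 6 h and between 3 h and 9 h, since ypr2 was added. These follow from the filter and thresholds themselves.

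The log2 change of sor1 at 3 h, which was not called, was -0.02 after quantile normalization in place of 0.14. With the nearest replica values of the 2 times, 20 of the 24 called changes stayed at 2-fold or more, and the smallest was ypr1 at 6 h against 0 h, at -0.64. Which replica values belong to 1 array is not known across features, so no array could be left out of the fit. No paired analysis was possible because the columns carry no replicate numbers.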

Other observations

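Polyketides are built from acetyl-CoA and its carboxylated form, and 3 genes of cytosolic acetyl-CoA supply had a symbol in the gene table. At no sampled time were any of the 3 called against 0 h. Of all features 6.77%, 6.68% and 7.48% were higher at 3 h, 6 h and 9 h, and 4.8%, 4.27% and 5.4% were lower. A count of 0 of 3 is near these shares. The ATP citrate lyase genes acl1 and acl2 had log2 changes of -0.03 and -0.39 at 6 h and of -0.26 and -0.29 at 9 h. The changes of acl2 at 3 h, -0.61, and at 6 h passed the adjusted p (0.00424 and 0.0353) and stayed under 2-fold. The replicas of acl1 overlapped between 0 h and each later time. The acetyl-CoA synthetase gene acs1 was at 15.0 ± 0.19 at 0 h and 15.08 ± 0.099 at 9 h.

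Features with log2 changes against 0 h most like those of sor1, of sor4 and of the median of the 6 genes were looked for over 3 changes, and not for the other genes. For sor1 the closest was TRIRE2_121336, at 0.16, 1.23 and 1.76, a root mean square distance of 0.044 on the log2 scale. For sor4 the closest, TRIRE2_58289 at -0.04, 3.63 and 5.69, was 0.78 away. Closest to the median of the 6 genes was TRIRE2_33827, at 0.37, 1.54 and 1.93 and a distance of 0.085. Within the cluster, sor2 lay 0.19, sor1 0.25 and ypr2 0.33 from that median, while sor3, sor4 and ypr1 lay 0.96, 2.7 and 3.0 away. With 3 changes from shared 0 h arrays, such likeness is a description only.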
